A study of Bos taurus and Ovis aries and Capra hircus with 18 samples.

Results

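The cytosolic ribosomal proteins described here are 46 genes, 29 of the large subunit (RPL and RPLP symbols) and 17 of the small subunit (RPS symbols), among 27607 cattle, 26478 sheep and 27271 goat gene models. They came from a list of symbols given to cattle genes by position, keeping the copy with several exons. Sheep and goat partners were found from exon lengths and gene order, since the deposited tables carry identifiers and no symbols. A partner was found for 44 of the 46 in sheep and for all 46 in goat. RPL15 and RPS13 had no sheep partner that met the rule and were described in cattle and goat alone. The study sequenced oligo(dT)-selected RNA of adult brain and adult muscle from cattle (Bos taurus), sheep (Ovis aries) and goat (Capra hircus), with 3 libraries, lettered A, B and C, in each of 6 groups. No breed, sex, treatment, brain region or muscle was named in the labels. It was not stated whether the letters stand for separate animals, so the p-values below measure the spread between these libraries, which may be technical.

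A cytosolic ribosome joins a small subunit, which reads the mRNA, to a large subunit, which forms the peptide bond, and each carries a set of proteins around its ribosomal RNA. The proteins are made in near-equal amounts, and their mRNAs share a pyrimidine tract at the 5′ end (the 5′ TOP motif) through which the kinase mTOR and the RNA-binding protein LARP1 control their translation. Nearly every ribosomal protein gene has processed copies elsewhere in mammalian genomes, and reads shared between a gene and its copies can be lost or split in counting.

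Each library held between 20730803 and 58514630 counts, spread over 17204 to 20221 genes. Levels below are counts scaled to library size (CPM, the usual per-million unit) after trimmed-mean (TMM) scaling, per kilobase (kb) of the exons in each gene model, and are written as CPM per kb. Tissue labels were checked against defining markers. Over 8 measured genes of skeletal muscle fibre the summed level was 53549 to 142453 CPM per kb in muscle libraries and 5.07 to 29.3 in brain libraries. Summed neuron markers (8 measured in cattle and goat, 6 in sheep) reached 1098 to 2738 CPM per kb in brain and 2.07 to 4.69 in muscle. One library stood apart for the genes described here. In sheep brain C the median of the ribosomal protein genes was 604 CPM per kb, against 242 in A and 347 in B, so sheep brain values are given with and without it. Neuron markers summed to 1098 CPM per kb in sheep brain C against 2243 and 1889 in A and B. Choroid plexus and ependyma markers (5 of 5 measured) set A apart, with 56.6 in A, 3.45 in B and 4.38 in C. Muscle fibre markers summed to 29.3 in C, 16.6 in A and 8.04 in B, against at least 121902 in sheep muscle. Lymphocyte markers (5 of 5 measured) summed to 8.40 in C, 3.50 in A and 2.45 in B, and the red blood cell markers (2 of 5 measured) to at most 0.032 in each. In goat brain A oligodendrocyte markers (7 of 8 measured) summed to 28982 CPM per kb, against 4525 and 5010 in B and C and 886 to 1852 in cattle and sheep brain. Without goat brain A the goat median difference between tissues was -1.63. The part of these marker values in the ribosomal protein values was not tested.

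Ribosomal protein mRNAs were higher in muscle than in brain in cattle and goat, and in sheep the difference was small and depended on the brain library. The median gene of the set stood at 157, 189 and 149 CPM per kb in cattle brain A, B and C and at 430, 407 and 544 in cattle muscle. Goat brain had medians of 417, 316 and 364 and goat muscle 897, 939 and 1456. Sheep muscle medians were 537, 513 and 473, above sheep brain A and B and below sheep brain C. These medians were taken over the 42 genes matched in all species and not near 0 in any. As a plain share of library counts, with no scaling, all genes named in the species made up 0.735% ± 0.049 (SD, n = 3) of cattle brain and 1.39% ± 0.182 of cattle muscle. The goat shares were 1.66% ± 0.251 in brain and 2.97% ± 0.459 in muscle. The sheep shares went the other way, with 2.50% ± 0.798 in brain (1.75%, 2.42% and 3.34% in A, B and C, with a mean of 2.08% without C) and 1.78% ± 0.143 in muscle.

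**Figure D1:**
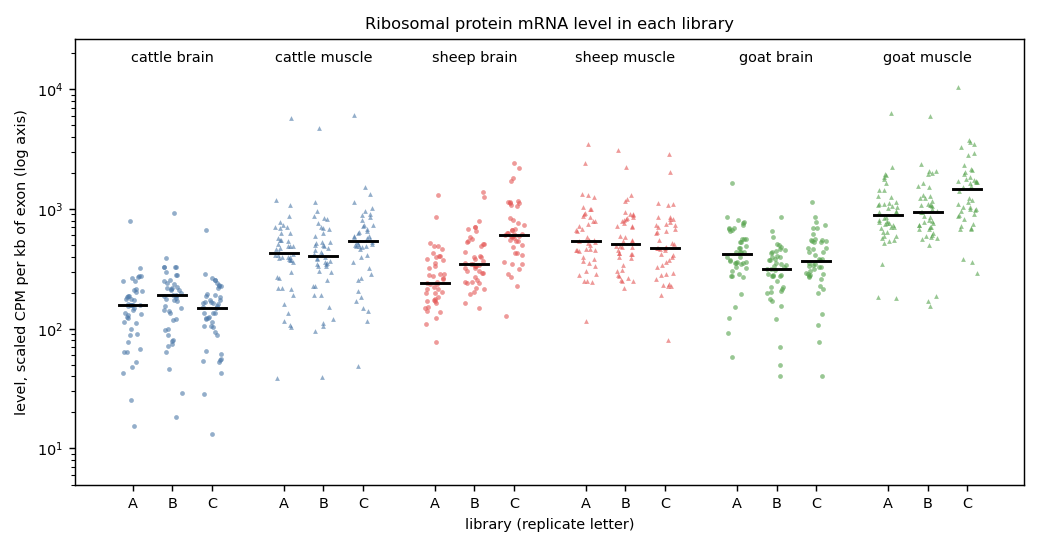
Level of each ribosomal protein gene in each library, in scaled CPM per kb of exon on a log axis; points are genes (circles brain, triangles muscle) and black bars the median of the 42 genes compared in all species. The bars are at 149 to 189 in cattle brain and 407 to 544 in cattle muscle, and sheep brain C, at 604, lies above the 3 sheep muscle libraries. RPL29 in goat, at 0, is not drawn.

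Brain was tested against muscle within each species with edgeR's quasi-likelihood test, with Benjamini-Hochberg (BH) adjustment over all genes tested. A gene was called at an adjusted p below 0.05 and a difference of at least 2-fold. In cattle 42 of 46 genes were called higher in muscle, where 25.3% of all genes were called in that direction, and 0 of 46 were called higher in brain, where 33.9% were. The median log2 brain over muscle was -1.37 over the genes of the set, with a range of -2.70 to -0.39, and 0.09 over all genes. Each of the 46 had its 3 cattle muscle libraries above its 3 brain libraries, as did 39% of all genes tested. Goat was similar: 38 of 45 genes tested were called higher in muscle (23.2% of all genes) and 0 higher in brain (31.4%), with a median of -1.51 against 0.12 over all genes. In goat 45 of 46 had all muscle libraries above all brain libraries, against 30.4% of all genes, the exception being RPL29, which had no counts.

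In sheep 6 of 44 genes were called higher in muscle, a share of 13.6% where 19.2% of all genes were called, and 0 were called higher in brain, where 28.5% were. The sheep median was -0.35, with a range of -1.70 to 0.75, against 0.17 over all genes. For 12 of 44 all muscle libraries lay above all brain libraries, a share near the 31.3% of all genes. For 36 of 44 they lay above brain A and B, where 40.2% of all genes did. Without sheep brain C the count called higher in muscle was 16, where 24.3% of all genes were called, and the median was -0.77. The sheep count moved with every library: it was 2 without brain A, 1 without brain B, and 1, 2 and 3 without muscle A, B and C. The shares of all genes in these fits were 16%, 15.8%, 14.1%, 14% and 14.1%. One gene was called higher in brain when brain A was left out, where 26.9% of all genes were. In each species, no gene that was higher in brain had an unadjusted p below 0.05 in edgeR, and DESeq2 called 0 genes higher in brain.

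With the species together, and species as a term, 28 of 44 genes were called higher in muscle (23.3% of all genes) and 0 higher in brain (31.1%), with a median of -1.14 against 0.07 over all genes. By adjusted p alone, with no 2-fold limit, 45 of 46 genes passed as higher in muscle in cattle (35.2% of all genes), 8 of 44 in sheep (20.2%), 42 of 45 in goat (26.9%) and 39 of 44 over the species (33.4%). The sheep share of 8 in 44 was near that of all genes. Both subunits took part. In cattle 25 of 29 large-subunit and 17 of 17 small-subunit genes were called, with medians of -1.36 and -1.39. Goat had 24 of 28 and 14 of 17 called, with medians of -1.56 and -1.43. The 4 sheep calls of the large subunit and 2 of the small subunit came with medians of -0.39 and -0.21.

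The direction holds relative to the other genes of the same library. With scaling to library totals alone the median over all genes moved to 0.76 in cattle, 1.11 in sheep and 0.86 in goat, and the medians over the ribosomal protein genes were -0.70, 0.53 and -0.74, so that the sheep sign turned. On that scale 14 genes in cattle and 17 in goat were called higher in muscle, where 14.2% and 12.8% of all genes were. In sheep 7 of 44 were called higher in brain, where 45.5% of all genes were, and 0 higher in muscle, where 9.1% were. From bulk tissue, fewer cells of a type and less RNA per cell cannot be told apart.

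**Figure D2:**
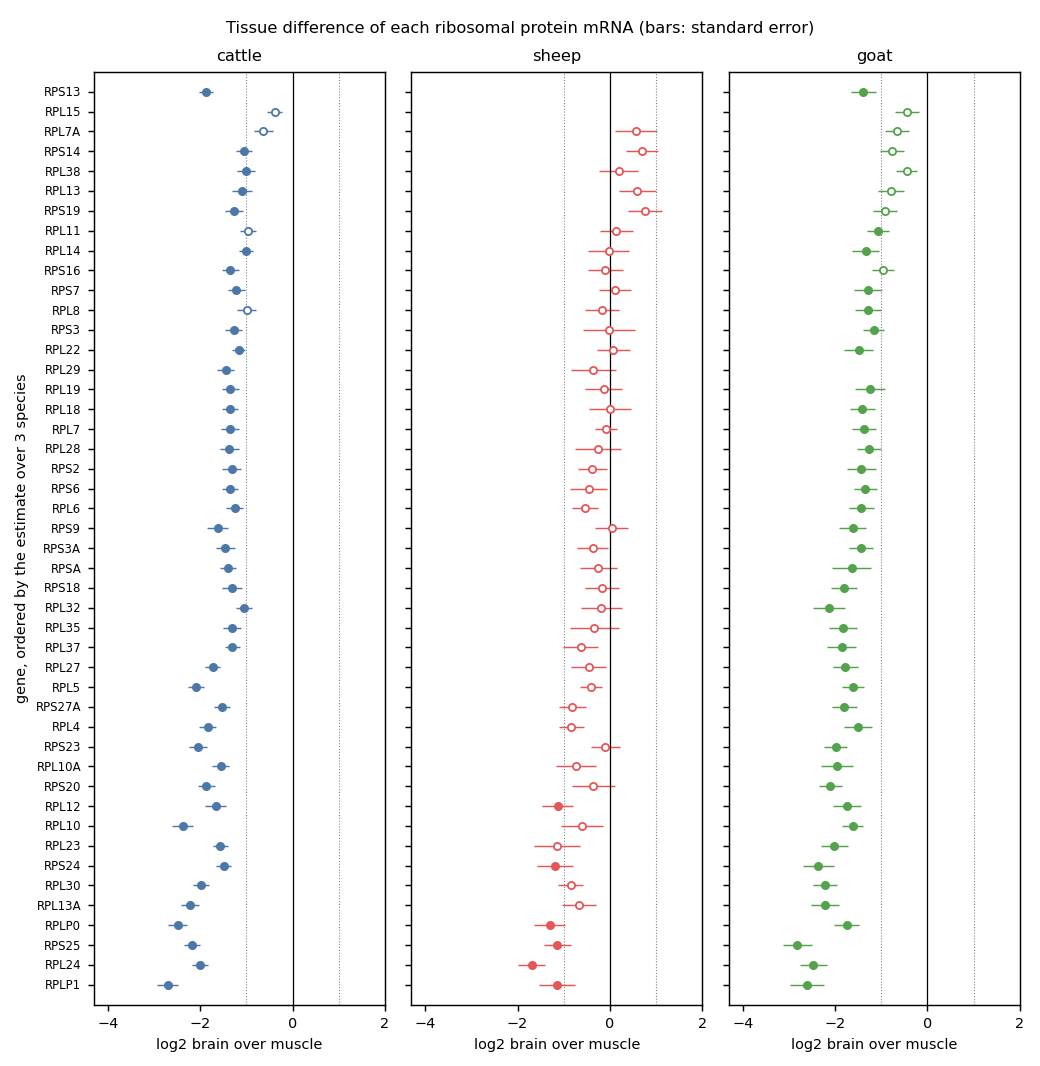
Log2 brain over muscle of each gene in each species, with its standard error as a bar; filled points were called (adjusted p below 0.05 and at least 2-fold, dotted lines) and open points were not. Cattle and goat points lie left of 0 throughout, and sheep points spread from -1.70 to 0.75. RPL15 and RPS13 have no sheep point and RPL29 has no goat point.

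The 6 genes called in sheep, RPLP0, RPLP1, RPL12, RPL24, RPS24 and RPS25, were called in each species. RPLP0 and RPLP1 form the acidic stalk of the large subunit, which recruits the translation GTPases, and RPL12 lies at the stalk base. RPLP1 (ENSBTAG00000018320, chromosome 10, 16343826 to 16345977 on ARS-UCD1.2, plus strand, 4 exons) was at 797, 917 and 667 CPM per kb in cattle brain A, B and C and at 5723, 4715 and 6050 in cattle muscle. In goat it was at 1654, 858 and 1151 in brain and 6320, 6019 and 10480 in muscle. The sheep values were 848, 1246 and 2190 in brain and 3500, 3090 and 2891 in muscle. No brain library reached a muscle library of its own species. By edgeR the log2 difference of RPLP1 was -2.70 ± 0.23 (standard error) in cattle, adjusted p = 1.05e-05, -2.61 ± 0.37 in goat, adjusted p = 0.000274, and -1.15 ± 0.38 in sheep, adjusted p = 0.0441. The sheep call of RPLP1 was lost with each library left out except brain C.

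RPLP0 stood at 185, 218 and 163 CPM per kb in cattle brain and 1086, 969 and 1341 in cattle muscle. Sheep brain had 244, 348 and 504 and sheep muscle 1043, 832 and 830, so the groups did not overlap. Goat values were 286, 177 and 259 in brain and 807, 782 and 888 in muscle. The log2 difference of RPLP0 was -2.49 ± 0.21 in cattle (edgeR, adjusted p = 1.14e-05), -1.30 ± 0.33 in sheep (adjusted p = 0.0158) and -1.89 ± 0.21 over the species (adjusted p = 1.54e-07). RPL12 was called in sheep at -1.13 ± 0.34 (adjusted p = 0.0303), from 238, 404 and 536 CPM per kb in brain and 921, 888 and 773 in muscle. In sheep the call of RPLP0 ended without brain B or muscle A, and that of RPL12 with any library left out except brain C.

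RPL24 and RPS25 had the lowest adjusted p among the sheep calls. RPL24 reaches from the large subunit toward the small one as a bridge between them, and RPS25 sits at the exit site for tRNA on the small subunit and is needed by several viral internal ribosome entry sites. RPL24 (ENSBTAG00000013461, chromosome 1, 46061453 to 46066949, minus strand, 6 exons) was at 122, 141 and 115 CPM per kb in cattle brain and 487, 486 and 641 in cattle muscle. It was at 199, 305 and 347 in sheep brain against 1007, 901 and 857 in sheep muscle without overlap. In goat it was at 196, 172 and 214 in brain and 832, 941 and 1542 in muscle. RPL24 had the lowest adjusted p of the set in sheep, at -1.70 ± 0.29 (edgeR, adjusted p = 0.00310), and over the species, at -2.10 ± 0.18 (adjusted p = 3.31e-09). Its sheep call was kept with each library left out in turn, the only one of the 6 sheep calls to do so.

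RPS25 (ENSBTAG00000027772, chromosome 15, 29588693 to 29590407, minus strand, 5 exons) had the lowest adjusted p in cattle and in goat. It was at 188, 212 and 194 CPM per kb in cattle brain and 869, 869 and 1133 in cattle muscle, a log2 difference of -2.18 ± 0.17 (edgeR, adjusted p = 7.41e-06). Goat brain had 400, 335 and 338 and goat muscle 1949, 2078 and 3731, a difference of -2.81 ± 0.31 (adjusted p = 6.11e-05). Sheep brain had 279, 332 and 482 and sheep muscle 863, 814 and 731. The sheep difference of RPS25 was -1.14 ± 0.29 (adjusted p = 0.0150), and it lost its call without brain A, brain B, muscle A or muscle B.

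Other genes with the lowest adjusted p were spread over both subunits. RPS13 changed in cattle by -1.87 ± 0.15 (edgeR, adjusted p = 7.71e-06), from 114, 119 and 105 CPM per kb in brain to 398, 420 and 498 in muscle. RPL5, which with RPL11 carries 5S ribosomal RNA and can bind the p53 regulator MDM2, was at 90.7, 98.5 and 89.2 in cattle brain and 410, 370 and 486 in cattle muscle, a log2 difference of -2.09 ± 0.18 (adjusted p = 1.08e-05). RPS20 in goat was at 152, 121 and 133 in brain and 537, 503 and 750 in muscle, a difference of -2.11 ± 0.25 (adjusted p = 8.75e-05). RPL30 in goat was at 433, 325 and 325 in brain and 1446, 1568 and 2144 in muscle, a difference of -2.22 ± 0.26 (adjusted p = 8.81e-05). RPS24 was the remaining sheep call, at -1.2 ± 0.39 (adjusted p = 0.0387), from 324, 396 and 812 in brain to 1262, 1159 and 1093 in muscle. That call was lost with each library left out except brain C.

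A few genes did not pass in cattle or goat. In cattle RPL7A (log2 difference -0.63 ± 0.21), RPL8 (-0.99 ± 0.20), RPL11 (-0.97 ± 0.17) and RPL15 (-0.39 ± 0.17) were not called. RPL7A, RPL8 and RPL11 missed only the 2-fold limit, and RPL15 had an adjusted p of 0.0619 in edgeR. Goat left RPL7A, RPL13, RPL15, RPL38, RPS14, RPS16 and RPS19 uncalled, with differences of -0.96 for RPS16 to -0.44 for RPL15. RPL7A and RPL15 were thus uncalled in both. In sheep the highest values were those of RPS19, at 0.75 ± 0.37, RPS14, at 0.69 ± 0.35, and RPL13, at 0.59 ± 0.40, none of them called.

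The genes differed from each other in how far they moved, and much of that order was shared by the species. To read it without library scaling, each level was divided by the median of the 42 genes in the same library, and the log2 ratio of muscle to brain was taken from these relative levels. Of 42 genes 29 shifted to the same tissue in all species, 14 toward muscle and 15 toward brain. This shift was taken for the 42 genes only, so its counts, here and below, have no share of all genes beside them. For 7 genes the relative levels of the tissues did not overlap in any species and lay higher in muscle. These were RPLP1 (shifts of 1.32, 0.80 and 1.08 in cattle, sheep and goat), RPL24 (0.61, 1.28 and 0.90), RPS25 (0.79, 0.72 and 1.23), RPL13A (0.83, 0.32 and 0.67), RPL30 (0.60, 0.42 and 0.68), RPL10A (0.16, 0.44 and 0.37) and RPS27A (0.14, 0.41 and 0.25). RPS27A is made as a fusion with ubiquitin, and RPL13A takes part in a complex that silences inflammatory mRNAs.

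For 6 genes the relative level was higher in brain without overlap in each species. These were RPL7A (shifts of -0.74, -0.84 and -0.87), RPS14 (-0.34, -1.06 and -0.76), RPL38 (-0.39, -0.50 and -1.09), RPL13 (-0.29, -0.91 and -0.72), RPL11 (-0.42, -0.51 and -0.46) and RPL14 (-0.37, -0.24 and -0.23). RPL38 is known for its part in translating Hox mRNAs, and RPS14 for its deletion in the 5q- form of myelodysplasia. RPS19, mutated in Diamond-Blackfan anaemia, shifted toward brain in sheep (-1.11) and goat (-0.60) and overlapped in cattle (-0.10). Across the 42 genes the cattle shifts had a Pearson r of 0.66 with those of sheep and 0.71 with those of goat, and the shifts of sheep and goat one of 0.80. With sheep brain C left out, which was chosen after seeing the data, r was 0.60 for cattle and sheep and 0.77 for goat and sheep. Genes are not independent replicates, and these correlations are a description. Each species has its own libraries, but the exon sequences and their composition are shared through descent.

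The shift followed gene length weakly. Its Pearson r with the log2 exonic length of the model was -0.13 in cattle, -0.16 in sheep and 0.01 in goat, over 42 genes. As part of the summed level of the 42 genes, RPLP1 took 10.6% ± 0.62 (SD, n = 3) in cattle brain and 21.2% ± 1.7 in cattle muscle. In sheep RPLP1 took 6.88% ± 0.17 in brain and 11.2% ± 0.44 in muscle, and in goat 7.14% ± 1.1 and 13.4% ± 0.78. RPL7A went the other way, from 4.29% ± 0.40 in cattle brain to 2.04% ± 0.064 in cattle muscle, from 4.67% ± 0.70 to 2.42% ± 0.15 in sheep, and from 2.92% ± 0.32 to 1.43% ± 0.086 in goat.

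**Figure D3:**
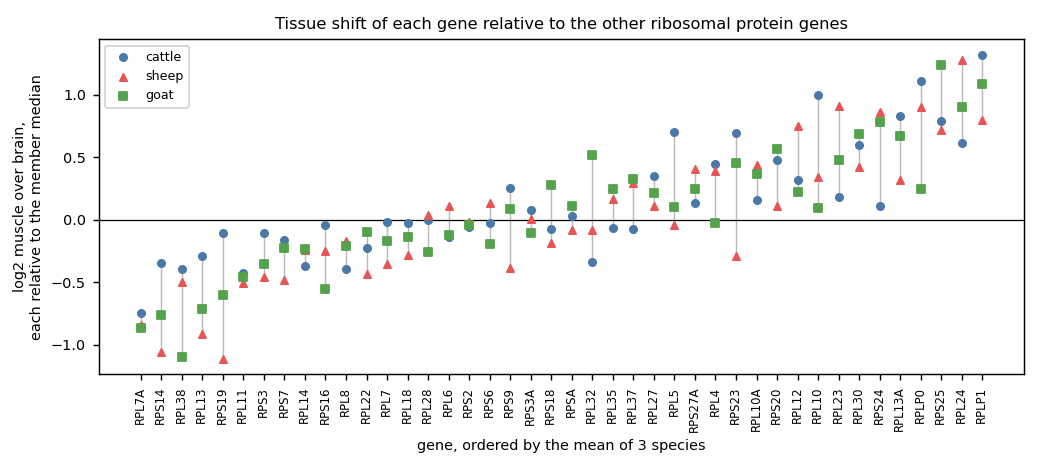
Log2 muscle over brain of each of 42 genes after division by the median gene of the same library, in cattle, sheep and goat; grey lines join the lowest and highest species. RPL7A is lowest, near -0.8 in each species, and RPLP1 highest, at 0.80 to 1.32.

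Within a group, levels per length spread over a wide range. RPLP1 ranked highest, first or second in each of the 6 groups, followed by RPL13A (ranks 2 to 8) and RPS2 (ranks 1 to 9). RPS2 was at 276, 328 and 239 CPM per kb in cattle brain, 1311, 1388 and 2436 in sheep brain and 782, 396 and 731 in goat brain. RPL5, RPL18 and RPL11 had the lowest mean ranks. RPL18 was at 111, 136 and 105 in cattle brain and 268, 199 and 276 in goat brain, and RPL11 at 64.2, 74.1 and 65.4 and at 319, 225 and 284 in the same groups. RPL13A, near the top, was at 267, 280 and 227 in cattle brain and 1186, 1138 and 1515 in cattle muscle. RPL18 kept to ranks 31 to 36 of 42, while RPL5 ran from 25 to 40 and RPL11 from 20 to 40, so neighbours at the low end changed places between groups. The log2 levels of 42 genes had a Pearson r of 0.90 between the tissues in cattle, 0.78 in sheep and 0.80 in goat. Between species in one tissue it was 0.36 to 0.41 in brain and 0.44 to 0.54 in muscle. Gene models, reads shared with copies and level are not separated in a comparison of species. Of the goat models 40 of 46 had a length that is a multiple of 3, against 17 of 46 in cattle and 13 of 44 in sheep. A coding sequence without untranslated ends has such a length, but other models can have it too. Median exonic lengths were 904 bases in cattle, 721 in sheep and 615 in goat.

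RPL19 and RPL29 were near 0 in one species. RPL19, a large-subunit protein of the bridge between subunits, was at 15.5, 18.5 and 13.2 CPM per kb in cattle brain and 39.1, 39.5 and 49.1 in cattle muscle. Sheep had 379, 587 and 1118 in brain and 799, 762 and 733 in muscle. Goat had 855, 650 and 862 in brain and 1426, 1516 and 2846 in muscle. The cattle means were 50.2-fold below the highest species in brain and 45.3-fold below in muscle. The cattle RPL19 model (ENSBTAG00000002060, chromosome 19, 39693965 to 39697803, plus strand, 6 exons, 950 exonic bases) shares 48.3% of its exonic bases with an unnamed model on the opposite strand, which had 3 to 52 counts. Cattle RPL19 still changed with tissue like the other genes and was called higher in muscle.

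RPL29, a heparin-binding protein of the large subunit, had 0 counts in all 6 goat libraries. The level that 3 counts would give was 0.144 to 0.193 CPM per kb in goat brain and 0.271 to 0.337 in goat muscle, and this limit covers counting error only. RPL29 stood at 201, 241 and 187 in cattle brain, 577, 534 and 725 in cattle muscle, 237, 318 and 846 in sheep brain and 656, 596 and 551 in sheep muscle. All 471 exonic bases of the goat RPL29 model (100%) lie within exons of the ACY1 model on the opposite strand, and ACY1 had 422 to 1062 counts. The sources used here do not say whether counting used strand, and reads that fall on both models cannot be told apart without it. Both genes are likely cases of reads shared with copies or overlapping models, which was not tested. RPL30 in cattle, at 27.7 CPM per kb in brain and 118 in muscle, was 13.0- and 14.6-fold below the highest species, past a 10-fold limit but not the 30-fold limit used. The RPL30 model is 1744 exonic bases long in cattle, 448 in sheep and 348 in goat. Elsewhere, overlap with another model took 25.2% of RPS18 in sheep, 24.7% of RPL35 in cattle, 16.1% of RPS16 in goat and 15.2% of RPL12 in cattle.

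Species were compared within a tissue over 44 matched genes, with exonic length as an offset. These comparisons share groups with each other. In brain 34 of 44 genes were called higher in sheep than in cattle, where 17.5% of all genes were called, and 0 higher in cattle, where 8.93% were. Of the genes higher in cattle brain, 0 had an unadjusted p below 0.05 in edgeR. The median log2 of cattle over sheep was -1.41 in brain, against -0.04 over all genes. Without sheep brain C 17 genes were called in either direction, and the share of all genes in that fit was not counted. Against goat brain 27 were called higher in goat (12.4% of all genes) and 2 higher in cattle (11.8%), with a median of -1.12 against 0.03. The 2 were RPL29, at 0 in goat, and RPS24, which was at 130, 149 and 166 CPM per kb in cattle brain and 57.8, 40.4 and 40.5 in goat brain. The RPS24 model is 3743 exonic bases long in goat, 1041 in cattle and 647 in sheep, and levels per kb depend on these lengths. Sheep brain exceeded goat brain in 6 genes, a share of 13.6% that was near the 13.5% of all genes. It was exceeded in 1 (5.5% of all genes), RPS3A. That total of 7 rose to 11 without sheep brain C, again with no share of all genes counted. The RPS3A model is 2288 exonic bases long in sheep and 838 in goat.

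In muscle cattle and sheep were closer. Of 44 genes 9 were called higher in sheep muscle, a share of 20.5% near the 16.8% of all genes. In cattle muscle 2 were called higher (13.2% of all genes), and the median was -0.10 against -0.05 over all genes. The 2 were RPS3A, at 627, 762 and 882 CPM per kb in cattle muscle and 251, 251 and 225 in sheep muscle, and RPS3. The RPS3A model is 2288 exonic bases long in sheep, 866 in cattle and 838 in goat, and levels per kb depend on these lengths. Goat muscle was above both. It exceeded cattle muscle in 25 genes (17.2%) and was exceeded in 1 (17.3%), RPL29. It exceeded sheep muscle in 23 genes (10.9%) and was exceeded in 3 (13.5%), which were RPL29, RPS24 and RPSA. RPS3A, RPS23 and RPS19 had the lowest adjusted p on the goat side, and goat muscle held 1274, 1282 and 1789 CPM per kb of RPS3A, 1132, 1245 and 1691 of RPS23 and 1032, 956 and 1399 of RPS19. The lowest adjusted p of cattle against either other species fell to RPL30, RPL19, RPS14 and RPL22. RPS14 was at 52.5, 64.0 and 54.1 in cattle brain, 486, 704 and 1136 in sheep brain and 764, 513 and 776 in goat brain. Its model is 2421 exonic bases long in cattle, 704 in sheep and 456 in goat. RPL22 was at 42.9, 45.8 and 42.8 in cattle brain, 289, 343 and 668 in sheep brain and 439, 429 and 329 in goat brain. The RPL22 model is 1734 exonic bases long in cattle, 447 in sheep and 387 in goat. Lengths of the RPL30 and RPS24 models are given above. The part of model length in each of these calls was not tested. Without the length offset the total called in brain was 41 for cattle against sheep and 18 for cattle against goat, and in muscle 5 for cattle against sheep, 20 for cattle against goat and 15 for sheep against goat. These totals take both directions together, and the shares of all genes in these fits were not counted.

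The tissue difference itself was tested between species by the interaction of species and tissue. It was called for 22 of 44 genes, where 25.4% of all genes were called. The pairs placed the difference with sheep. Brain over muscle was higher in sheep than in cattle for 44 of 44 genes, with 22 called and a median log2 difference of 1.24. Over all genes 11% were called in that direction and the median was 0.08. It was lower in goat than in sheep for 43 of 44, with 13 called and a median of -1.25, against 4.6% of all genes called and a median of 0.01. Goat and cattle split 22 to 22 with a median of 0.01, and edgeR called 0 genes there, with 1 at an unadjusted p below 0.05. Of all genes 6.7% were called higher and 6.89% lower in goat than in cattle. The sheep libraries enter both of the pairs with calls. Without sheep brain C the interaction was called for 17 genes. It was called for 37 without sheep brain A and for 13, 10 and 9 without sheep muscle A, B and C. The shares of all genes in these fits were not counted, so a change over all genes cannot be told from one in this set. Of the 22 genes 9 were called with each library left out in turn.

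RPL5 had the lowest adjusted p of the interaction. Its sheep brain values of 173, 201 and 228 CPM per kb and sheep muscle values of 286, 283 and 229 lay close together, against the wide difference in cattle given above. Goat RPL5 was at 277, 203 and 200 in brain and 739, 706 and 679 in muscle. The log2 brain over muscle of RPL5 was higher in sheep than in cattle by 1.77 ± 0.29 (edgeR, adjusted p = 0.000717). RPS23, a protein of the decoding centre, was at 47.9, 71.6 and 52.3 in cattle brain, 220, 257 and 286 in cattle muscle, 150, 214 and 316 in sheep brain and 247, 250 and 232 in sheep muscle. Its difference between sheep and cattle was 2.05 ± 0.38 (adjusted p = 0.00151) and between goat and sheep -1.93 ± 0.37 (adjusted p = 0.00663). RPS19 differed between sheep and cattle by 2.12 ± 0.43 (adjusted p = 0.00281) and RPS14 by 1.83 ± 0.40 (adjusted p = 0.00499). RPS19 was at 215, 353 and 542 in sheep brain and 248, 220 and 192 in sheep muscle, so the groups overlapped through brain A. The calls of these 4 genes held without sheep brain C.

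The sheep brain libraries differed among themselves for nearly the whole set. The level in C was a median of 2.07 times the mean of A and B over 44 genes, with a range of 0.806 to 3.40, and 1.11 times over 11345 named genes above 1 CPM per kb in each library. C exceeded both A and B for 42 of 44 genes, RPS3 and RPL6 being the others, and B exceeded A for all 44. Over the 11345 genes C exceeded both for 5803 and B exceeded A for 6008. The largest ratios were those of RPL35 (407, 654 and 1800 CPM per kb in A, B and C, a ratio of 3.40), RPL28 (109, 150 and 411, a ratio of 3.17) and RPL29 (3.05). On the log scale the 4 genes furthest from the median ratio were all on the low side: RPS3 (0.806), RPL7 (426, 559 and 596, a ratio of 1.21), RPL5 (1.22) and RPL6 (178, 293 and 288, a ratio of 1.22). The Pearson r of the log2 ratio with the log2 exonic length was -0.24 over 44 genes. Sheep muscle had no such spread, with medians within 473 to 537 CPM per kb. In goat muscle the median in C (1456) stood above those in A (897) and B (939), and without goat muscle C the goat median difference was -1.39 and 36 genes were called. In that fit 24.1% of all genes were called higher in muscle and 31.6% higher in brain.

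**Figure D4:**
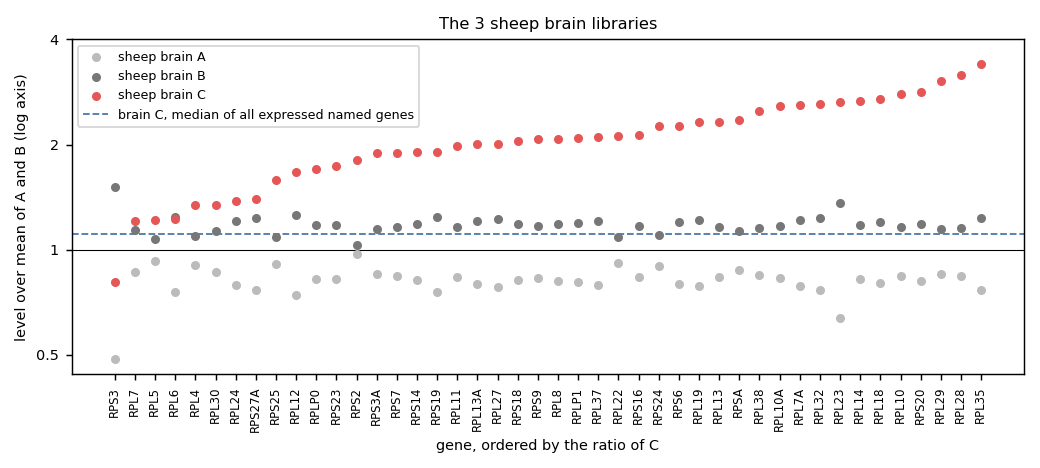
Level of each of 44 genes in sheep brain A, B and C over the mean of A and B, on a log axis; the dashed line is the median of C over 11345 expressed named genes, 1.11. C runs from 0.806 for RPS3 to 3.40 for RPL35, and B lies above A for each gene.

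RPS3 and RPSA each had one replicate letter that stood out in both tissues, a pattern noticed after the values were seen. RPS3, which binds mRNA at its entry to the small subunit, was at 77.1, 241 and 128 CPM per kb in sheep brain A, B and C and at 116, 256 and 80.2 in sheep muscle. Relative to the median gene of its library, sheep B was 2.17 times the next letter in brain and 2.31 times in muscle. RPSA, which also gives rise to a laminin receptor, was at 124, 49.7 and 107 in goat brain and 350, 156 and 385 in goat muscle. Goat B was lower than the next letter by a ratio of 1.86 in brain and 1.6 in muscle. Of 42 genes in 3 species these were the only ones past a ratio of 1.5 on the same side and letter in both tissues. Whether the letters name animals is not known, and correlations of same-letter deviations over all genes are given in the last section.

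By species, 6 of the 46 genes were called in each, and 29 in cattle and goat but not in sheep. The share of all genes with each of these patterns was not counted. Of all genes 25.3%, 19.2% and 23.2% were called higher in muscle in cattle, sheep and goat. The 29 were RPL4, which lines the exit tunnel, RPL5, RPL6, RPL7, RPL10, RPL10A, RPL13A, RPL14, RPL18, RPL19, RPL22, RPL23, RPL27, RPL28, RPL30, RPL32, RPL35, RPL37, RPS2, RPS3, RPS3A, RPS6, RPS7, RPS9, RPS18, RPS20, RPS23, RPS27A and RPSA. RPL13, RPL38, RPS14, RPS16 and RPS19 were called in cattle alone and RPL8 and RPL11 in goat alone. Of the genes not tested in one species, RPS13 was called in cattle and goat and RPL29 in cattle. RPL7A and RPL15 were called in none. A difference between species in these calls was tested by the interaction above and not by the counts. RPS6, the substrate of S6 kinase, was at 133, 155 and 122 CPM per kb in cattle brain and 373, 335 and 410 in cattle muscle. In sheep RPS6 was at 202, 304 and 572 in brain and 531, 483 and 468 in muscle, so the groups overlapped through brain C. RPL10, which joins the large subunit late in its assembly, had one of the larger cattle differences, from 136, 190 and 136 in brain to 700, 846 and 1025 in muscle.

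Genes around the ribosome were read from lists taken from textbook knowledge. For the counts that follow, 25.3%, 19.2% and 23.2% of all genes were called higher in muscle in cattle, sheep and goat. The shares called higher in brain were 33.9%, 28.5% and 31.4%. The 34 remaining cytosolic ribosomal proteins had similar counts: 25 of 32 measured in cattle, 2 of 30 in sheep and 20 of 24 in goat were called higher in muscle, with medians of -1.38, -0.23 and -1.52. The sheep count lay below the share of all genes. RACK1, a scaffold on the small subunit, was called in each species, at -2.28 ± 0.17 in cattle (edgeR, adjusted p = 4.84e-06), -1.33 ± 0.28 in sheep (0.00700) and -2.32 ± 0.24 in goat (4.04e-05). RPL3, at the peptidyl transferase centre, was the one gene of this list called higher in brain, and that in sheep alone, at 1.2 ± 0.37 (edgeR, adjusted p = 0.0316). In cattle and goat RPL3 had values of 0.21 ± 0.26 and 0.55 ± 0.26, and the interaction was not called (adjusted p = 0.170).

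RPL3L, the striated-muscle paralog of RPL3, was near 0 in brain and above RPL3 in each muscle library. RPL3L was at 390, 262 and 362 CPM per kb in cattle muscle, 412, 311 and 336 in sheep muscle and 334, 308 and 386 in goat muscle, and at 0.253 to 1.53 in all 9 brain libraries. Its log2 brain over muscle was -7.89 ± 0.27 in cattle (edgeR, adjusted p = 8.57e-08), -8.92 ± 0.71 in sheep (0.000168) and -9.61 ± 0.35 in goat (4.68e-07). RPL3 was at 83.7, 153 and 173 in cattle muscle and 133, 156 and 153 in cattle brain. As a percent of RPL3L plus RPL3 per length, RPL3L was 71.0% ± 10.1 (SD, n = 3) in cattle muscle, 71.3% ± 7.79 in sheep muscle and 69.0% ± 3.09 in goat muscle. The same percent in brain was 0.90 ± 0.172 in cattle, 0.205 ± 0.0779 in sheep and 0.202 ± 0.0789 in goat. Of the other paralogs, RPS27L was called higher in muscle in each species (-2.99, -2.97 and -4.06), and RPL22L1 in cattle (-1.15) and goat (-2.07) but not in sheep (0.28 ± 0.31), with the interaction called (adjusted p = 0.00209).

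The paralogs EEF1A1 and EEF1A2 deliver tRNA to the ribosome and stood on opposite sides. EEF1A2, the form of adult muscle and neurons, was called higher in muscle in each species, at -1.73 ± 0.25 in cattle (edgeR, adjusted p = 0.000253), -1.14 ± 0.33 in sheep (0.0258) and -1.01 ± 0.30 in goat (0.0153). EEF1A1, the general form, had values on the brain side of 0.77 ± 0.26, 0.65 ± 0.30 and 0.77 ± 0.33, none of them called. EEF1A1 was at 242, 290 and 273 CPM per kb in cattle brain and 113, 217 and 175 in cattle muscle. With library totals alone the median over all genes lies further on the brain side in each species, as given above, so the size of these differences depends on the scaling. Over 33 elongation and initiation factors, 25 of 32 in cattle, 11 of 32 in sheep and 17 of 32 in goat were called higher in muscle and 0 higher in brain, with medians of -1.37, -0.95 and -1.03. EIF3E, a subunit of the factor eIF3, had the lowest adjusted p in each, at -2.38, -2.64 and -2.93. Other mRNAs with a 5′ TOP motif, which share members with the factors, gave 13 of 17, 7 of 16 and 11 of 17 called higher in muscle. TPT1, which encodes the translationally controlled tumour protein, differed by -3.87 ± 0.25 in cattle (adjusted p = 2.06e-06), -3.32 ± 0.34 in sheep (0.000386) and -3.77 ± 0.38 in goat (3.30e-05).

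Of 42 ribosome assembly genes 27 of 42 in cattle, 9 of 40 in sheep and 12 of 40 in goat were called higher in muscle, with medians of -1.23, -0.14 and -0.56. SBDS, mutated in Shwachman-Diamond syndrome and needed with EFL1 to release EIF6 from the large subunit, was called in sheep at -2.37 ± 0.35 (edgeR, adjusted p = 0.00170) and in goat at -1.72 ± 0.27 (0.000557). RNA polymerase I genes, which transcribe ribosomal RNA, gave 6 of 15, 3 of 14 and 2 of 13, with medians of -0.92, 0.12 and -0.26. Of all genes 25.3%, 19.2% and 23.2% were called in that direction. The sheep and goat counts of this list, and the sheep count of ribosome assembly, were near or below those shares. RRN3, the initiation factor of that polymerase, was called in each species (-1.66, -1.41 and -1.02). Of the genes that control translation of 5′ TOP mRNAs 10 of 19, 8 of 17 and 7 of 18 were called higher in muscle. EIF4EBP1, the repressor released by mTOR, had the widest difference of the list in each species, at -4.31 ± 0.43 in cattle (edgeR, adjusted p = 2.83e-05), -3.86 ± 0.58 in sheep (0.00187) and -5.56 ± 0.37 in goat (3.01e-06). Mitochondrial ribosomal proteins, which serve translation within mitochondria, gave 45 of 76, 24 of 68 and 44 of 66 called higher in muscle and 0, 3 and 1 higher in brain, with medians of -1.14, -0.73 and -1.21. The lists were not tested against each other.

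**Figure D5:**
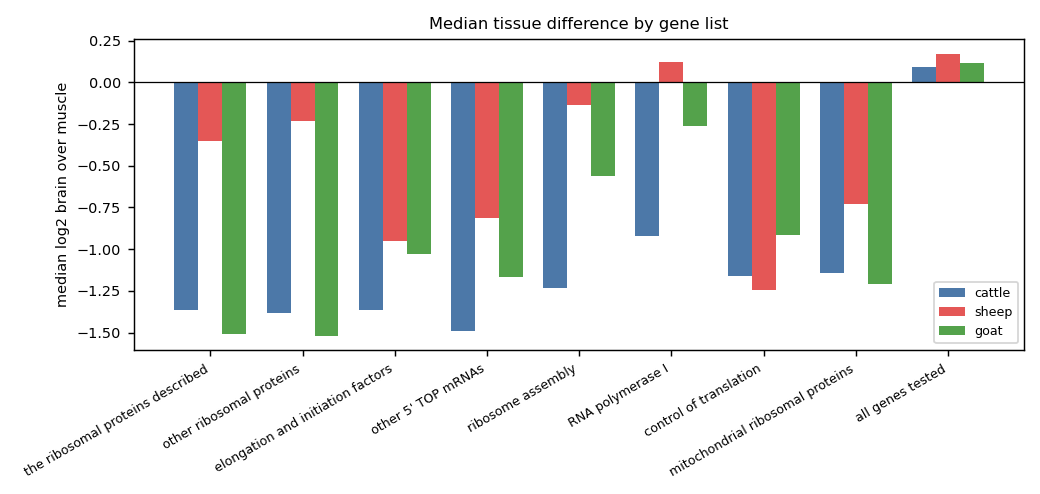
Median log2 brain over muscle of each gene list in cattle, sheep and goat, with the ribosomal proteins described at the left and all genes tested at the right; bars start at 0. The medians of the ribosomal proteins described are -1.37, -0.35 and -1.51, and those of all genes are 0.09, 0.17 and 0.12.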

How the data were processed

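RNA of adult brain and muscle from 3 species was sequenced after oligo(dT) selection, per the labels' protocols, in 18 libraries. The submitters' processing notes name Trimmomatic 0.39, STAR 2.7.6, featureCounts and the build ARS-UCD1.2. The builds of sheep and goat, strandedness and the handling of reads with several placements were not given in the sources used here. The values deposited by the authors are raw counts per Ensembl gene model and library, and all libraries were used.

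Symbols for cattle models came from the RefSeq table (ARS-UCD2.0) by position in 2 steps, since 0 identifiers matched, giving 21331 names. A name needed spans overlapping by at least 0.5 of their union. A model still unnamed took a name where 0.9 of the shorter span was covered and one end lay within 500 bases, which named RPL11, RPL30, RPS24 and RPSA. Partners in sheep and goat needed shared exon lengths in conserved gene order, and 14941 genes were matched in all species.

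Counts were fitted with edgeR 4.0.16 in R 4.3.3 (filterByExpr, TMM, robust quasi-likelihood, BH over all genes). Fits across species used exonic length as an offset. DESeq2 1.42.0, other scalings, filters, matches and leaving out each library were alternatives. The fits were tested on simulated counts. A gene was near 0 where its level was below 1 in both tissues of a species or at least 30-fold below the highest species in both. The genes of the set and the lists were chosen with earlier results of these data known. Genes given in full were those near 0, up to 4 called of lowest adjusted p per comparison, the highest and lowest by level, and those furthest from the median ratio in sheep brain C. Up to 4 genes of lowest adjusted p for the interaction were added. From each other list up to 3 genes of lowest adjusted p were eligible, besides RPL3L, EEF1A1, EEF1A2 and RPL22L1. Further genes were named after their values were seen. Counting error and the spread between libraries were not separated.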

Additional observations from a re-analysis of the deposited data

Results flagged for a closer look

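The tissue difference differed between species for 22 ribosomal protein genes by the interaction test in edgeR, 9 of them with each library left out in turn. The 4 of lowest adjusted p were RPL5, with a largest log2 difference between species of 1.77 (adjusted p = 0.00134), RPS23, with 2.05 (0.00155), RPS19, with 2.12 (0.00436), and RPS14, with 1.83 (0.00752). In each of the 4 the largest difference was between sheep and cattle. Groups of 3 libraries are too small for the check on single outlying samples, so none was made.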

How the results depend on the processing

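With library totals alone the counts called higher in muscle were 14 in cattle, 0 in sheep, 17 in goat and 3 over the species, 7 were called higher in brain in sheep, and the medians were -0.701, 0.531, -0.745 and -0.161. Of all genes 14.2%, 9.1%, 12.8% and 9.6% were called higher in muscle in these fits, and 45.5% higher in brain in sheep. Matches of the first pass alone left 26 of the genes over the species, with 15 called higher in muscle, 11 for the interaction, 18 in brain and 14 in muscle of cattle against goat, and 14 in muscle of sheep against goat. In the tissue fit with these matches 22.9% of all genes were called higher in muscle. Without the length offset 18 were called in brain of cattle against goat, and 5 and 15 in muscle of cattle against sheep and sheep against goat. With a library left out, sheep counts ran from 1 to 16 higher in muscle and 0 to 1 higher in brain, the interaction from 9 to 37, brain of cattle against sheep from 17 to 40 (0 to 1 of them higher in cattle) and brain of sheep against goat from 6 to 11. For the interaction and the species comparisons, the shares of all genes under these alternatives were not counted. Leaving out libraries for the shares was chosen after seeing the data and kept each within its spread. The share of cattle brain was 0.68% over the genes matched in all species and not near 0, and 0.721% with only RPL19 and RPL29 left out, which was chosen after seeing the data. The rule for pairing by letter was not met, and whether letters name animals is not known: the correlation of same-letter deviations over all genes was -0.038 to 0.035 in cattle, 0.078 to 0.144 in sheep, where each library correlated best with its own letter, and -0.164 to 0.203 in goat. With the replicate block 3 sheep genes were called higher in muscle, where 18.2% of all genes were, and 5 for the interaction. Of the calls reported, 37 of 42 in cattle, 36 of 38 in goat, 25 of 28 over the species, 1 of 6 in sheep and 9 of 22 for the interaction were made with each library left out in turn. The other tissue and species counts stayed within 1.5 times under RLE scaling and no filter, as did the tissue counts under DESeq2. The species comparisons and the interaction were not fitted with DESeq2.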
